A study of Mus musculus with 20 samples.

Results

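Salivary ducts rework the saliva that acinar cells secrete, and 10 genes of duct ion transport, ionocytes and duct keratins were followed here in the salivary glands of young C57BL/6 mice. They were chosen by symbol: the epithelial sodium channel subunits Scnn1a, Scnn1b and Scnn1g, the chloride channel Cftr, the carbonic anhydrase Car2, the bicarbonate cotransporter Slc4a4, the transcription factors Ascl3 and Foxi1, and the keratins Krt7 and Krt19. All 10 were among the 18194 genes measured by probe sets annotated with 1 symbol. Where a gene had several probe sets, the brightest on average stood for it, and its values are log2 signals, so a difference of 1 is a doubling.

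The glands, free of lymph nodes, came from C57BL/6J mice aged 4, 8, 12 or 16 weeks. Each age had 5 mice, each with its own Affymetrix mouse whole-genome array. These mice were the healthy strain set beside C57BL/6.NOD-Aec1Aec2 mice, a model of Sjögren's syndrome whose arrays were not analysed here. The labels name no transgene and no treatment, so age was the factor compared. The labels do not say which of the major salivary glands were pooled. In GRCm38.p6 the genes outside the Scnn1b and Scnn1g neighbourhood lie at chr6:125314271-125344943 (Scnn1a), chr6:18170687-18322770 (Cftr), chr3:14886269-14900770 (Car2), chr5:88793858-89239656 (Slc4a4), chr7:109727465-109731732 (Ascl3), chr11:34204341-34208089 (Foxi1), chr15:101412403-101427806 (Krt7) and chr11:100140810-100145926 (Krt19).

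Ducts take sodium and chloride out of saliva and add bicarbonate and potassium. The epithelial sodium channel of the apical membrane carries the sodium, Cftr carries chloride and bicarbonate, carbonic anhydrase supplies the bicarbonate, and aldosterone raises sodium uptake. Ionocytes are rare cells, rich in mitochondria and proton pumps, that are specified by Foxi1 in several epithelia, and Ascl3 marks a duct cell population in mouse salivary glands. In bulk tissue, fewer cells of a type and less RNA per cell cannot be told apart.

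The mice were labelled male, but the signals of the sex-linked genes went against the label in all 20 arrays. Xist, expressed from the inactive X chromosome, had a log2 signal between 8.96 and 10.7. The Y-linked genes Eif2s3y, Kdm5d and Uty had signals of 2.07 to 2.97, 3.65 to 4.75 and 4.58 to 5.76. All ages were alike in this, so no comparison of ages could be made without such arrays. The arrays also differed in spread: gene values of 1 array had a standard deviation between 1.38 and 1.90. The mouse of 16 weeks numbered replicate 1 had the highest value of its age in 34.6% of genes and the lowest in 23.9%, and results that rest on it are given with and without it. The mouse of 4 weeks numbered replicate 5, whose array had the largest spread, was the highest of its age in 33.3% of genes and the lowest in 32.5%. Without it 14 genes in place of 1345 were called at 8 against 4 weeks and 91 in place of 660 at 16 against 4 weeks, and 0 of the 10 genes in any comparison.

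None of the 10 genes passed the test at any step. In a limma fit of the 20 arrays, adjusting p by Benjamini-Hochberg across every gene with a threshold of 0.05, 0 of 10 were called at 8 against 4 weeks, where 7.39% of all genes were called (3.26% higher and 4.13% lower). The counts were 0 of 10 at 12 against 8 weeks (background 0.0055%), 0 of 10 at 16 against 12 weeks (0.192%, of which 0.187% lower), 0 of 10 at 16 against 4 weeks (3.63%, made of 0.506% higher and 3.12% lower) and 0 of 10 in the F test for any difference among the 4 ages (2.6%). At an unadjusted p under 0.05 the counts were 1, 2, 4, 2 and 2 of 10 in the same order, and 32.4%, 18.8%, 14.2%, 24.2% and 25.9% of all genes met that mark. The values of the compared ages overlapped for all 10 genes in each comparison, whereas 5.75%, 5.34%, 2.65% and 3.07% of all genes did not overlap in the 4 comparisons. The median log2 fold change of the 10 genes was 0.04, 0.12, -0.08 and 0.14 in the same 4 comparisons, against 0.05, -0.05, -0.02 and 0.01 over all genes. Of all genes called at 8 against 4 weeks 44.1% were higher at 8 weeks, against 19.9% with each array centred on its median, 33.5% with quantile normalization and 24.7% with cyclic loess. At 16 against 4 weeks the shares were 13.9%, 7.57%, 26.8% and 28%. The counts of the 10 genes rest on few values, and a missed threshold does not show that the ages were equal, so intervals are given with the differences that follow.

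**Figure D1:**
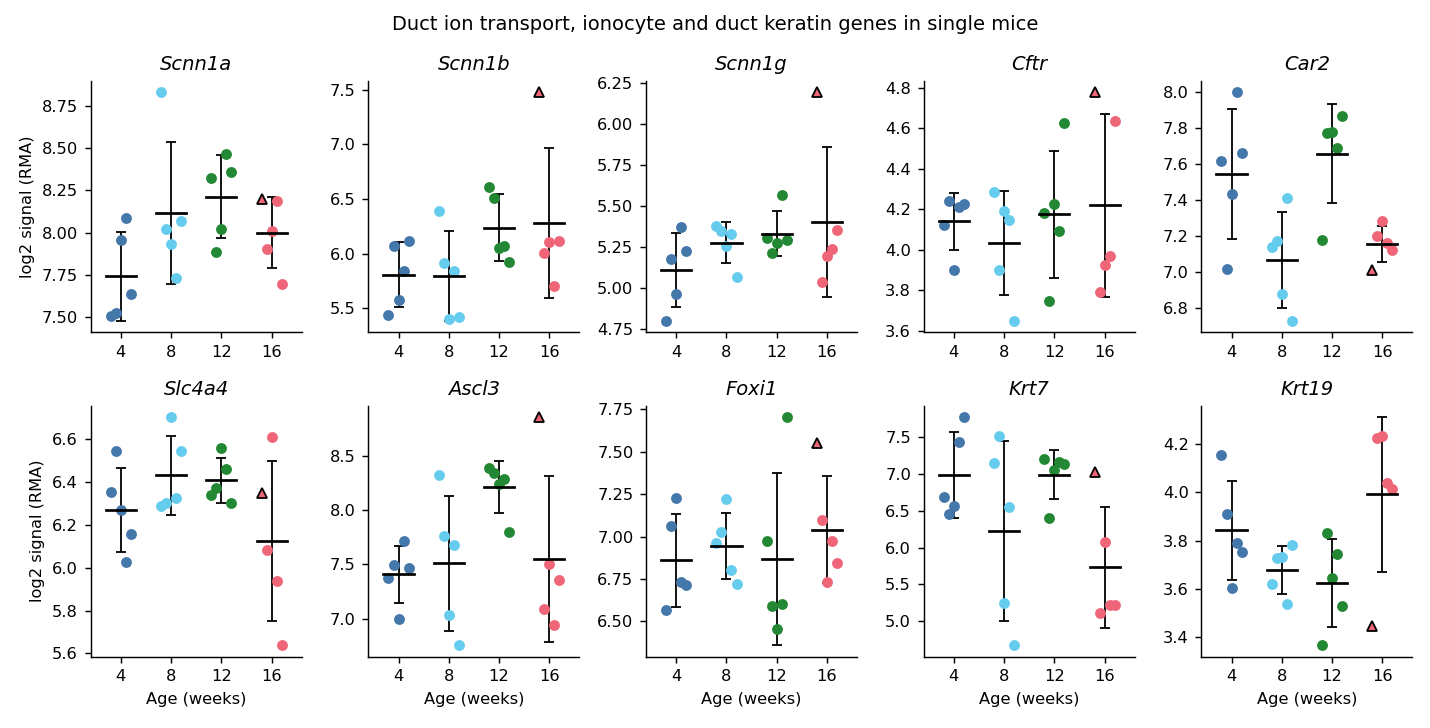
Log2 signal (vertical axis) of 10 genes in single mice aged 4, 8, 12 or 16 weeks (horizontal axis), with a line at the mean and bars of 1 SD over 5 mice. The outlined triangle is the 16-week mouse replicate 1, which is the highest of its age for 7 of the 10 genes and the lowest for Car2 and Krt19.

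Among the sodium channel subunits, the pore-forming alpha subunit Scnn1a had its lowest mean at 4 weeks. Scnn1a measured 7.50, 7.53, 7.96, 8.09 and 7.64 at 4 weeks, 8.83, 8.02, 7.93, 7.73 and 8.07 at 8 weeks, 8.32, 7.89, 8.02, 8.47 and 8.36 at 12 weeks, and 8.20, 7.90, 8.01, 8.19 and 7.70 at 16 weeks. One mouse of 8 weeks lay above all others, and the rest of that age overlapped the mice of 4 weeks. The mean was 8.12 ± 0.42 at 8 weeks and 7.74 ± 0.26 at 4 weeks (SD, n = 5 each), a log2 fold change of 0.37 with a 95% interval from -0.01 to 0.76 (adjusted p = 0.164 from limma). Later steps were smaller, with a log2 fold change of 0.10 at 12 against 8 weeks and of -0.21 at 16 against 12 weeks.

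The outcome for Scnn1a depended on how the arrays were scaled. The deposited values gave a log2 fold change of 0.26 at 16 against 4 weeks (adjusted p = 0.407 from limma). Quantile normalization gave 0.78 both there and at 8 against 4 weeks (adjusted p = 0.0449 and 0.0398 from limma), and cyclic loess gave 0.81 and 0.82 (adjusted p = 0.039 and 0.033 from limma), so that Scnn1a was called in both comparisons. Of all genes 5.82% and 7.07% were called by these scalings at 8 against 4 weeks, and 4.01% and 4.33% at 16 against 4 weeks. The same scalings turned the sign of Scnn1a to -0.31 at 12 against 8 weeks and to 0.30 at 16 against 12 weeks. Genes in the same decile of mean signal as Scnn1a, the brightest, had a median log2 fold change of -0.49 at 8 against 4 weeks, 0.50 at 12 against 8 weeks, -0.53 at 16 against 12 weeks and -0.55 at 16 against 4 weeks in the deposited values. Scnn1a thus had the opposite sign to the median of similarly bright genes at 8 against 4 weeks and at 16 against 4 weeks. The part of the scaling in these differences was not tested.

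The beta and gamma subunits, which join the alpha subunit in the channel, are encoded by the neighbouring genes Scnn1b and Scnn1g. Scnn1b measured 5.44, 6.07, 5.57, 5.84 and 6.12 at 4 weeks, 6.39, 5.92, 5.40, 5.84 and 5.42 at 8 weeks, 6.61, 6.51, 6.05, 6.07 and 5.93 at 12 weeks, and 7.47, 6.01, 6.11, 5.70 and 6.12 at 16 weeks. A single mouse of 16 weeks stood far above the rest, and the other 4 lay among the values of the younger ages. The log2 fold change was 0.47 at 16 against 4 weeks with a 95% interval from -0.08 to 1.03 (adjusted p = 0.282 from limma). It was 0.18 without 16-week replicate 1 (adjusted p = 0.578). With each array's spread of signal taken as a covariate it was 0.97 and was called (adjusted p = 0.0351 from limma), while 0.813% of all genes were.

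Scnn1g had a narrower range. It measured 4.80, 5.17, 4.96, 5.37 and 5.23 at 4 weeks, 5.38, 5.35, 5.25, 5.33 and 5.07 at 8 weeks, 5.30, 5.21, 5.28, 5.57 and 5.29 at 12 weeks, and 6.19, 5.04, 5.19, 5.24 and 5.35 at 16 weeks. The same mouse of 16 weeks was the highest, a pair of 4-week mice (replicates 1 and 3) were the lowest, and the ages otherwise overlapped. The log2 fold change at 16 against 4 weeks was 0.30 with a 95% interval from -0.06 to 0.65 (adjusted p = 0.304 from limma), and 0.10 without that mouse.

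Scnn1g and Scnn1b lie on chromosome 7 of GRCm38.p6, both on the plus strand, with 96555 bases between the end of Scnn1g (121734420 to 121768482) and the start of Scnn1b (121865038 to 121918728). Their promoters are printed because these neighbours shared their highest mouse. Each stretch holds 250 bases before and 50 after the gene's start in the RefSeq promoter table, read 5′ to 3′, at chr7:121864788-121865087 for Scnn1b and chr7:121734229-121734528 for Scnn1g. For Scnn1g that start lies inside the gene as given above, after its first base at 121734420.
Scnn1b: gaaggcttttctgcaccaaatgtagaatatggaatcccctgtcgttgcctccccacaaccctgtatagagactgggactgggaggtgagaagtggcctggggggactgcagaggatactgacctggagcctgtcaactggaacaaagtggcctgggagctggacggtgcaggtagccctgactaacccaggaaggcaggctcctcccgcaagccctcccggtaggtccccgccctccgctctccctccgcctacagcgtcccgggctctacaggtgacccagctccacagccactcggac
Scnn1g: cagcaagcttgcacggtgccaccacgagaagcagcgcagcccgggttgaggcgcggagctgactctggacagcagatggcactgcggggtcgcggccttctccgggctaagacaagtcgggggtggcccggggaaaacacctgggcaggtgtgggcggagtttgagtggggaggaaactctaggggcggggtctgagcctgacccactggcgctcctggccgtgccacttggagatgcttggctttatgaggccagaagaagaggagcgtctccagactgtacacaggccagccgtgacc
Neither holds capitals, because none of the motifs searched was found in them. These were the palindromic steroid receptor element that aldosterone and glucocorticoid receptors bind and the forkhead core TGTTTAC, each on both strands, and the letters TATAAA, which were added after the sequences had been seen. Of 32851 mouse promoters of this length, 0.00913% held the steroid element, 3.65% the forkhead core and 13.6% TATAAA on either strand. Promoters of 7 of the 10 genes were found in the RefSeq table, 8 stretches in all because Slc4a4 has a pair, and 0 of these held the steroid element or the forkhead core.

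Of the chloride and bicarbonate genes, Car2 had the lowest F test p-value of all 10. Car2, a cytosolic carbonic anhydrase, measured 7.62, 7.02, 7.43, 8.00 and 7.66 at 4 weeks, 7.14, 7.17, 6.88, 7.41 and 6.73 at 8 weeks, 7.18, 7.77, 7.78, 7.69 and 7.87 at 12 weeks, and 7.01, 7.20, 7.29, 7.16 and 7.12 at 16 weeks. The mice of 8 and 16 weeks were mostly low and those of 4 and 12 weeks mostly high, with 1 low mouse at 4 weeks and 1 at 12 weeks. The mean was 7.07 ± 0.27 at 8 weeks and 7.55 ± 0.36 at 4 weeks (SD, n = 5 each), a log2 fold change of -0.48 with a 95% interval from -0.83 to -0.12 (adjusted p = 0.0739 from limma). At 12 against 8 weeks it was 0.59 with an interval from 0.24 to 0.94 (adjusted p = 0.136 from limma), and at 16 against 12 weeks -0.50 with an interval from -0.86 to -0.15 (adjusted p = 0.219 from limma). Over the 4 ages the F test gave an adjusted p of 0.0807 from limma, and Car2 was called by it without 4-week replicate 2 (0.0344) or 8-week replicate 4 (0.0476). Without these mice 775 and 1082 of 18194 genes were called by it, against 473 with all arrays.

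Single mice decided whether Car2 was called at 8 against 4 weeks. Without 4-week replicate 2, the low mouse of its age, the log2 fold change was -0.61 (adjusted p = 0.0303 from limma). Without 8-week replicate 4, the high mouse of its age, it was -0.56 (adjusted p = 0.0396 from limma). Of all genes 9.82% and 14.8% were called without these mice, against 7.39% with all arrays. For Car2, centring each array on its median gave -0.57 (adjusted p = 0.0496 from limma), with 7.22% of all genes called. Quantile normalization gave -0.17 (adjusted p = 0.542 from limma), with 5.82% of all genes called. Genes in the same decile of mean signal had medians of -0.25, 0.21, -0.21 and -0.19 in the 4 comparisons, and Car2, with -0.48, 0.59, -0.50 and -0.39, had the same sign each time. By root mean square difference of gene-centred values over the 20 arrays, the genes with patterns most like Car2 were Ampd3 (0.21), Pts (0.21) and Sun1 (0.22), where the median over all genes was 0.47.

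Cftr and Slc4a4 showed less. Cftr measured 4.12, 4.24, 3.90, 4.21 and 4.22 at 4 weeks, 4.29, 3.90, 4.19, 4.15 and 3.65 at 8 weeks, 4.18, 3.74, 4.23, 4.09 and 4.62 at 12 weeks, and 4.78, 3.79, 3.92, 3.97 and 4.63 at 16 weeks. Its log2 fold changes lay between -0.11 and 0.14 over the 4 comparisons, and all 4 intervals lay within -0.51 and 0.54. A second probe set of Cftr gave 0.23 at 8 against 4 weeks, where the first gave -0.11, and neither passed the test.

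Slc4a4, which brings sodium and bicarbonate across the basolateral membrane, measured 6.35, 6.55, 6.27, 6.03 and 6.16 at 4 weeks, 6.29, 6.30, 6.70, 6.32 and 6.55 at 8 weeks, 6.34, 6.37, 6.56, 6.46 and 6.30 at 12 weeks, and 6.35, 6.08, 6.61, 5.94 and 5.64 at 16 weeks. The mice numbered 2, 4 and 5 at 16 weeks were below all mice of 12 weeks, replicate 1 lay among them and replicate 3 above them. The log2 fold change at 16 against 12 weeks was -0.28 with a 95% interval from -0.61 to 0.04 (adjusted p = 0.418 from limma). Its 5 probe sets disagreed in sign in every comparison, with 0 of them called.

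Ascl3 stood highest and tightest at 12 weeks. It measured 7.37, 7.49, 6.996, 7.71 and 7.47 at 4 weeks, 8.32, 7.76, 7.03, 7.68 and 6.75 at 8 weeks, 8.39, 8.35, 8.24, 8.28 and 7.80 at 12 weeks, and 8.86, 7.09, 7.50, 6.94 and 7.36 at 16 weeks. The lowest mouse of 12 weeks, at 7.80, was above the highest of 4 weeks, at 7.71. This pair of ages was not among the planned comparisons, and how many of all genes separated it was not counted. The 8-week replicate 1 and 16-week replicate 1 reached the span of the 12-week mice or passed it. The mean was 8.21 ± 0.24 at 12 weeks and 7.51 ± 0.62 at 8 weeks (SD, n = 5 each), a log2 fold change of 0.70 with a 95% interval from 0.07 to 1.33 (adjusted p = 0.23 from limma). At 16 weeks it was 7.55 ± 0.77, a log2 fold change of -0.66 against 12 weeks with an interval from -1.29 to -0.03 (adjusted p = 0.334 from limma).

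The 16-week mouse replicate 1 decided this last result. Without it the other 4 mice of 16 weeks, at 6.94 to 7.50, all lay below the 5 of 12 weeks, at 7.80 to 8.39, and the log2 fold change was -0.99 (adjusted p = 0.0277 from limma). How many of all genes separated these remaining mice was not counted, here and for Krt7 and Krt19 below. Ascl3 was then called also in the F test (adjusted p = 0.0282), as were 2611 of 18194 genes. Quantile normalization brought the log2 fold change at 16 against 12 weeks to -0.33 (adjusted p = 0.468), and genes in the same decile of mean signal had a median of -0.53 in the deposited values. The patterns most like that of Ascl3 belonged to Rcan2 (root mean square difference 0.25), Ivns1abp and Crispld2 (0.27 each), where the median over all genes was 0.64.

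The promoter of Ascl3, on the minus strand of chromosome 7, is printed because it was the only 1 of the 8 stretches with TATAAA. It spans chr7:109731683-109731982 (GRCm38.p6, RefSeq), and capitals mark the letters TATAAA or their reverse complement TTTATA.
Ascl3: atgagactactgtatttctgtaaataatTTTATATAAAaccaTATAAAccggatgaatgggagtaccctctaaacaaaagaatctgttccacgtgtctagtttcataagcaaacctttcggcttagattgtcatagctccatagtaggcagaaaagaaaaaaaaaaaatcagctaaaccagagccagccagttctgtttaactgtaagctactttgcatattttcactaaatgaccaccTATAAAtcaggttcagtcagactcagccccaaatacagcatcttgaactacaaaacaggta
The 4 matches begin at 222, 218, 208 and 11 bases before the annotated start, the first and second overlapping. They are a description of letters and not of a factor bound there.

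Foxi1, a forkhead factor that specifies ionocytes in mouse kidney, inner ear and airway, had nearly equal means at all ages. It measured 6.57, 7.06, 7.23, 6.73 and 6.71 at 4 weeks, 6.96, 7.03, 7.22, 6.81 and 6.72 at 8 weeks, 6.98, 6.59, 6.46, 6.60 and 7.71 at 12 weeks, and 7.55, 7.10, 6.73, 6.98 and 6.84 at 16 weeks. At 12 weeks, where all mice were high in Ascl3, 3 of 5 had Foxi1 values of 6.46 to 6.60 and 1 had the highest value of all 20. The log2 fold changes of Foxi1 were 0.09, -0.08, 0.18 and 0.18 in the 4 comparisons, and all intervals lay within -0.52 and 0.62 (adjusted p at least 0.62 from limma). Whether the 2 factors differed in their response to age was not tested.

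Krt7, a keratin of simple duct epithelium, varied most. It measured 6.69, 6.46, 6.56, 7.42 and 7.77 at 4 weeks, 7.14, 7.51, 5.25, 6.55 and 4.68 at 8 weeks, 7.19, 6.40, 7.04, 7.16 and 7.13 at 12 weeks, and 7.02, 5.11, 6.08, 5.22 and 5.22 at 16 weeks. A gap separated 5 mice, 2 of 8 weeks and 3 of 16 weeks, at 4.68 to 5.25, from the other 15 at 6.08 or above. The mean was 5.73 ± 0.82 at 16 weeks and 6.99 ± 0.33 at 12 weeks (SD, n = 5 each), a log2 fold change of -1.25 with a 95% interval from -2.21 to -0.30 (adjusted p = 0.251 from limma). Against 4 weeks, at 6.98 ± 0.58, it was also -1.25, with an interval from -2.20 to -0.30 (adjusted p = 0.11 from limma).

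As with Ascl3, the call on Krt7 turned on 1 mouse. Without 16-week replicate 1 the mice of 16 weeks, at 5.11 to 6.08, lay below those of 12 weeks, at 6.40 to 7.19. Krt7 was then called at 16 against 12 weeks (-1.58, adjusted p = 0.0426) and 16 against 4 weeks (-1.57, adjusted p = 0.022), both by limma. Of all genes 5.69% and 16.5% were called in these comparisons without that mouse. Krt7 was also called by the F test without this mouse (adjusted p = 0.0427), as were 2611 of 18194 genes. Its within-age standard deviation, 0.81, was above that of 98.5% of genes.

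The 5 arrays with the lowest Krt7 were also the 5 with the lowest spread of signal, with standard deviations of 1.38 to 1.46 against higher ones in the other 15. With that spread as a covariate, the log2 fold change of Krt7 was 0.27 at 8 against 4 weeks, -0.06 at 12 against 8 weeks, -0.51 at 16 against 12 weeks and -0.30 at 16 against 4 weeks, with adjusted p of 0.712 or above from limma. The deposited values gave -0.76, 0.76, -1.25 and -1.25 in the same 4 comparisons. The genes most like Krt7 over the 20 arrays were Mif, Aqp5 and Sem1 (root mean square differences 0.25, 0.26 and 0.26), where the median over all genes was 0.94. Aqp5 is the water channel of acinar cells, and its signal at 16 weeks was 9.04 ± 0.93 against 10.2 ± 0.22 at 12 weeks (SD, n = 5 each). The part of the spread of signal in these values was not tested.

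**Figure D2:**
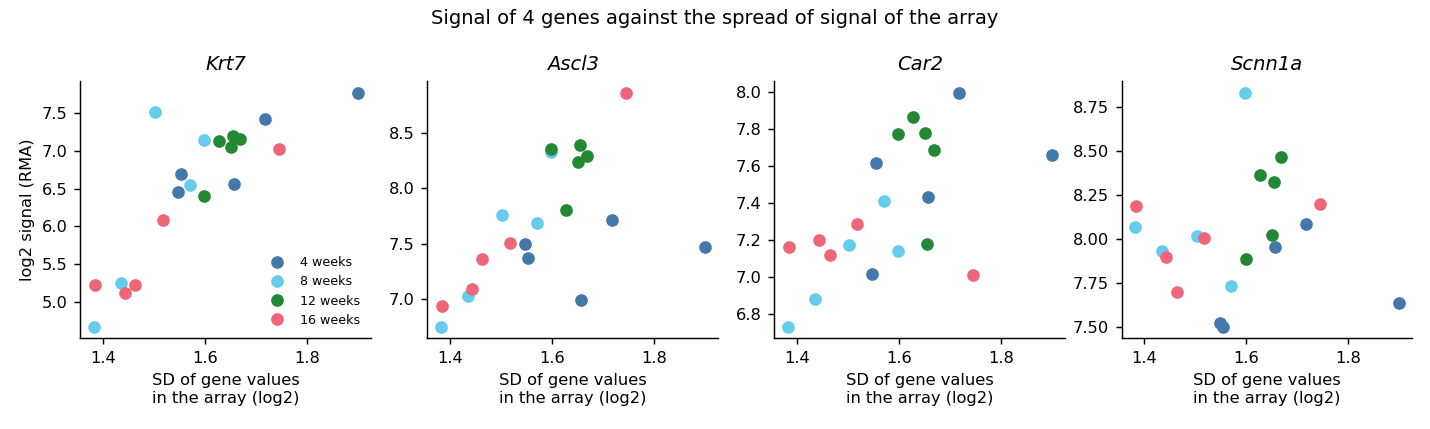
Log2 signal (vertical axis) of Krt7, Ascl3, Car2 and Scnn1a against the standard deviation of gene values in the array (horizontal axis, log2), with 1 point per mouse coloured by age. For Krt7 the 5 lowest points, at 4.68 to 5.25, lie at the 5 lowest standard deviations, 1.38 to 1.46.

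Krt19, the other duct keratin, had its highest mean at 16 weeks. It measured 4.15, 3.91, 3.60, 3.79 and 3.75 at 4 weeks, 3.62, 3.73, 3.73, 3.53 and 3.78 at 8 weeks, 3.37, 3.83, 3.64, 3.74 and 3.53 at 12 weeks, and 3.45, 4.22, 4.23, 4.04 and 4.01 at 16 weeks. In 16-week replicate 1 it was low, and in the other 4 mice of that age it was above all 5 of 12 weeks. The log2 fold change at 16 against 12 weeks was 0.37 with a 95% interval from 0.06 to 0.67 (adjusted p = 0.283 from limma), and 0.50 without that mouse (adjusted p = 0.034 from limma). The F test then gave an adjusted p of 0.0419, and 2611 of 18194 genes were called by it. The genes most like Krt19 were Ankrd13d (0.17), 2610028H24Rik and Hbb-y (0.18 each), where the median over all genes was 0.38.

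The signals of Krt19 and Cftr were low. Among 11 genes of other organs, such as Umod of the kidney and Cyp7a1 of the liver, the mean signal ran from 2.83 to 7.13, and only Scnn1a, Ascl3 and Car2 had mean signals above that span. Signals of different probe sets cannot be ranked as amounts of RNA, so this shows only that probes for genes not expected in the gland gave signals in the range of the other 7 genes. For Foxi1, Krt7, Slc4a4 and Scnn1b this rests on Cyp7a1 alone, as the next of the 11, Prm1, had 5.98. Mean signals were 3.78 for Krt19 and 4.14 for Cftr, and whether these probe sets measured their transcripts above background was not tested.

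Without 16-week replicate 1, 3 of the 10 genes were thus called at 16 against 12 weeks, namely Ascl3, Krt7 and Krt19, while 5.69% of all genes were called. With arrays weighted by their quality in limma the same 3 were called, at -0.83, -1.40 and 0.46 on the log2 scale (adjusted p = 0.0419, 0.0265 and 0.0398), while 6.4% of all genes were. The weights were estimated from these same values, so this fit is no independent check. The mouse was the highest of its age in Scnn1a, Scnn1b, Scnn1g, Cftr, Ascl3, Foxi1 and Krt7, and the lowest in Car2 and Krt19. The mean over the 13 acinar markers was 10.8 in it and 10.7 in replicate 5, against 8.53 to 9.30 in the other mice of its age. Of these markers Amy1, Bpifa2 and Cst10 had SDs of 3.66, 2.98 and 2.84 at 16 weeks, while Car6, Pip and Prol1 had 0.64, 0.67 and 0.68. The mean over the 7 fibroblast markers was 7.75 in replicate 1, against 6.28 to 6.86 in the others. The part of cell makeup in its values was not tested.

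**Figure D3:**
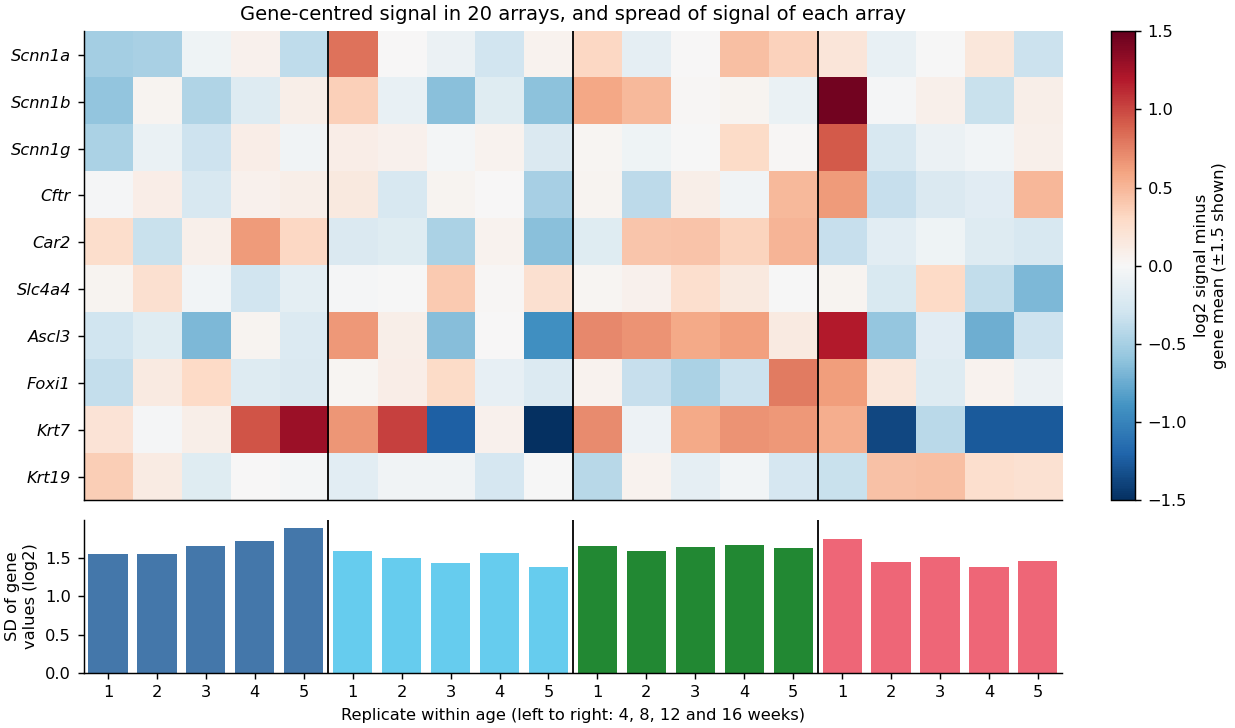
Log2 signal of 10 genes minus the gene's mean (colour, cut at 1.5) in 20 arrays ordered by age, above bars of the standard deviation of gene values in each array (log2). The 16-week replicate 1 column lies above the gene's mean in 8 of 10 rows, all but Car2 and Krt19, and the 5 darkest blue Krt7 cells stand over the 5 shortest bars.

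**Figure D4:**
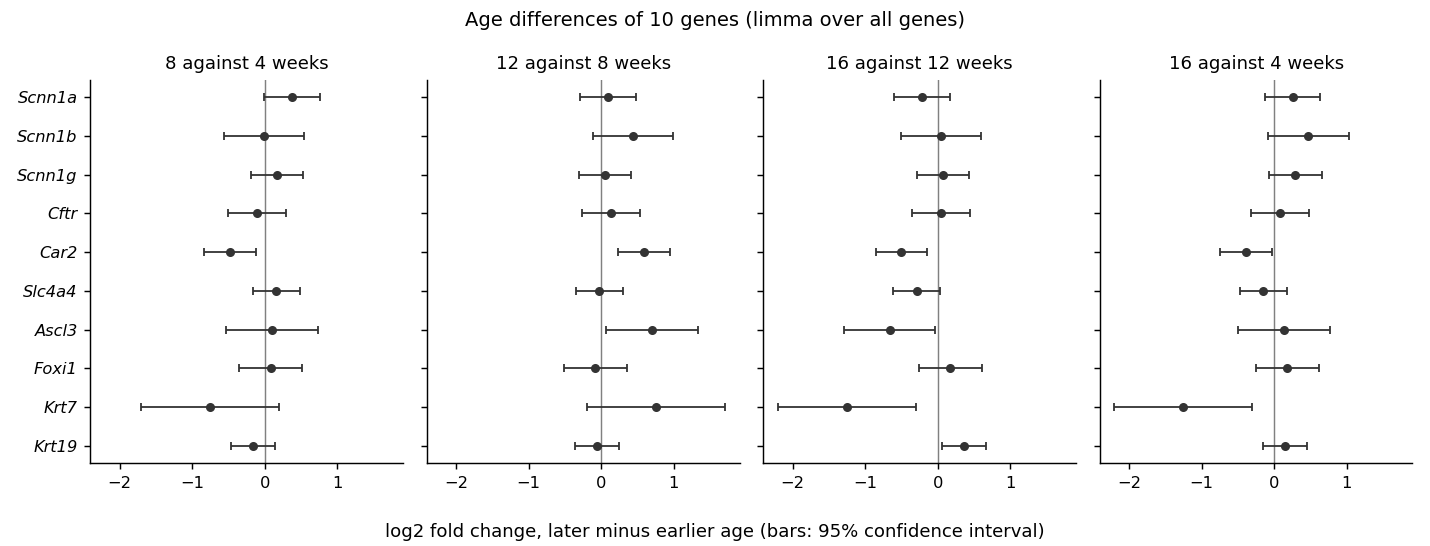
Log2 fold change, later minus earlier age, of 10 genes in 4 comparisons, with 95% confidence intervals from limma. Intervals exclude 0 for Car2 in all 4 panels, Ascl3 at 12 against 8 and 16 against 12 weeks, Krt7 at 16 against 12 and 16 against 4 weeks and Krt19 at 16 against 12 weeks, yet none of the 10 genes passed after adjustment over 18194 genes.

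Some regulators of the sodium channel passed the test, all of them lower at the later age. Of 12 measured, 3 were lower and 0 higher at 8 against 4 weeks, 0 were called at 12 against 8 weeks, 2 were lower at 16 against 12 weeks and 4 were lower at 16 against 4 weeks, all with 0 higher. Over all genes 4.13%, 0.187% and 3.12% were called lower at 8 against 4, 16 against 12 and 16 against 4 weeks. The medians of the 12 regulators were -0.43, 0.48, -0.47 and -0.46, against 0.05, -0.05, -0.02 and 0.01 over all genes. The brightest decile of mean signal, which held only Usp2 and Stk39 of the 12, had medians of -0.49, 0.50, -0.53 and -0.55 in the deposited values. The decile that held Sgk1 had medians of 0.09, -0.08, 0.03 and 0.06. That of Prss8 and Tsc22d3 had -0.25, 0.21, -0.21 and -0.19. At an unadjusted p under 0.05 there were 6 of 12 regulators at 12 against 8 weeks, where 18.8% of all genes met that mark. Usp2, a deubiquitinase induced by aldosterone that keeps the channel at the surface of mouse kidney cells, fell to 7.08 ± 0.68 at 16 weeks, against 9.27 ± 0.28 at 12 weeks (SD, n = 5 each). Its log2 fold change was -2.19 (standard error 0.29, adjusted p = 0.00182 from limma), and the 2 ages did not overlap. Usp2 was called in this comparison in all 11 alternatives and with each of the 20 mice left out. Sgk1, the aldosterone-induced kinase that blocks removal of the channel, fell to 4.63 ± 0.62 at 16 weeks, against 6.21 ± 0.29 at 12 weeks, a difference of -1.58 on the log2 scale (standard error 0.29, adjusted p = 0.0231 from limma). The call on Sgk1 was lost without any 1 of 12-week replicates 1, 3, 4 and 5 or 16-week replicates 2, 4 and 5, with adjusted p up to 0.105, and in 1 of 11 alternatives (adjusted p = 0.0826).

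Earlier in life 3 other regulators fell. Stk39, a kinase of the chloride cotransport pathway, fell to 7.51 ± 0.94 at 8 weeks, against 9.17 ± 0.58 at 4 weeks (log2 fold change -1.66, adjusted p = 0.0218 from limma). Prss8, a protease that activates the channel, changed by -1.26 on the log2 scale (adjusted p = 0.0336) and Tsc22d3, a glucocorticoid-induced regulator, by -1.06 (adjusted p = 0.0264). At 16 against 4 weeks Usp2, Stk39 and Tsc22d3 had -1.86, -1.64 and -1.25 (adjusted p = 0.00335, 0.0169 and 0.0134 from limma), and Sgk1 had -1.15 (adjusted p = 0.0355). Usp2 was called there in all 11 alternatives and with each of the 20 mice left out. With the spread covariate Stk39, Tsc22d3 and Sgk1 had -1.03, -0.82 and -0.64 at 16 against 4 weeks and were not called (adjusted p = 0.108, 0.0698 and 0.285), which was the only alternative that lost Stk39 and Tsc22d3, while Sgk1 was lost in 3 of 11. The call on Stk39 was also lost without 4-week replicate 4 or 5 or 16-week replicate 2 or 4, that on Tsc22d3 without 16-week replicate 2, and that on Sgk1 without 4-week replicate 3, 4 or 5 or 16-week replicate 2, 4 or 5. After adding each array's spread of signal to the model, the values for Stk39, Prss8 and Tsc22d3 at 8 against 4 weeks were -0.99, -0.44 and -0.60, and none was called (adjusted p = 0.256, 0.418 and 0.336). Each of the 3 calls was also lost without 4-week replicate 4 or 5 or 8-week replicate 3 or 5, and that on Prss8 also without 4-week replicate 3 or 8-week replicate 2. Usp2 and Stk39 lay in the brightest decile of mean signal, at percentiles 96.6 and 95.7. Prss8, Tsc22d3 and Sgk1 lay below it, at percentiles 87.2, 84.1 and 49. The part of the scaling in the values of the regulators was not tested.

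Other transport genes gave single calls. Of 13 acid, bicarbonate and chloride transporters measured, 1 was higher at 8 against 4 weeks and 0 were called elsewhere: Slc4a5, a sodium bicarbonate cotransporter, which was higher by 0.73 on the log2 scale (adjusted p = 0.0242 from limma). Its mean signal was low, at 4.02 (percentile 17.4), within the span of the genes of other organs. Genes in the same decile of mean signal had a median of 0.15 in that comparison. Among 12 sodium pump and potassium transport genes, the potassium channel gene Kcnk1 was lower at 8 against 4 weeks (-1.11, adjusted p = 0.0415) and the pump regulator Fxyd3 at 16 against 4 weeks (-1.87, adjusted p = 0.0459), and 0 were called in the other 2 comparisons. Of 9 proton pump subunits, Atp6v0d1, a subunit of proton pumps in all cells, was lower at 8 against 4 weeks (-1.53, adjusted p = 0.0277) and 0 were called elsewhere. Each of these 4 calls was lost in at least 2 of the alternatives, among them that with the spread covariate, and without single mice, 4 of 20 for Slc4a5 and Atp6v0d1, 10 of 20 for Kcnk1 and 13 of 20 for Fxyd3.

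Ionocyte and duct epithelial genes were mostly uncalled. Of 10 measured ionocyte markers, 0 were called in any of the 4 comparisons by limma, with 1, 1, 2 and 2 at an unadjusted p under 0.05. Apart from Tfcp2l1, at 8.655, their mean signals were 3.516 to 6.945, within the span of the genes of other organs (2.83 to 7.13). Atp6v0d2, at 6.945, and Moxd1, at 6.126, lay above all of those genes but Cyp7a1. Whether the probe sets of the markers other than Tfcp2l1 measured their transcripts above background was not tested. The 10 markers had median log2 fold changes of 0.0005, -0.04, -0.02 and 0.08, against 0.05, -0.05, -0.02 and 0.01 over all genes. Tfcp2l1, a factor of duct and ionocyte cells, had 9.35 ± 0.39 at 12 weeks and 8.14 ± 1.11 at 8 weeks (SD, n = 5 each), 1.22 apart on the log2 scale (adjusted p = 0.199 from limma). It lay in the brightest decile of mean signal (percentile 97.1), whose median was 0.50 in that comparison. Atp6v0d2, a proton pump subunit of ionocytes, had differences of -0.16, 0.33, -0.24 and -0.07 on the log2 scale (adjusted p at least 0.382). Of 16 duct keratins and epithelial markers, 1 was lower at 16 against 4 weeks, the tight junction gene Cldn3 with -1.09 (adjusted p = 0.0456), a call lost in 5 of 11 alternatives and without any 1 of 13 mice. Krt8 and Krt18, the keratin pair of simple epithelia, had -1.28 and -1.05 at 16 against 4 weeks (adjusted p = 0.131 and 0.153 from limma), where the median of the 16 was -0.48.

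Genes of other cell types in the gland moved at the same ages. At 8 against 4 weeks, 4 of 6 products of the granular convoluted tubules were higher, 2 of 13 acinar markers and 4 of 7 fibroblast markers were lower, where 3.26% of all genes were higher and 4.13% lower. The kallikreins Klk1b5, Klk1b16 and Klk1b21 had 1.75, 1.71 and 1.29, the acinar genes Lpo and Ano1 had -1.61 and -1.30, and the matrix genes Col3a1, Postn and Col1a2 had -2.21, -1.45 and -1.17 on the log2 scale (adjusted p up to 0.0449 from limma). Such calls depended on single mice: without 4-week replicate 5, 2 of all genes were called higher and 12 lower at 8 against 4 weeks. At 16 against 4 weeks 14 were then higher and 77 lower. With only the arrays of the ages compared the counts were 0 and 2 at 8 against 4 weeks and 9 and 66 at 16 against 4 weeks. How many calls of these lists were kept in those fits is not given here. At 16 against 12 weeks 0 of 6 tubule products, 0 of 13 acinar markers and 1 of 7 fibroblast markers were called, lower at 16 weeks, namely Postn with -1.05, where 0.187% of all genes were lower. At 16 against 4 weeks 4 of 6 tubule products were higher, led by Klk1b16 (2.30), Klk1b5 (2.00) and Klk1b21 (1.47), and the acinar genes Lpo and Smgc (-2.10 and -1.73) and 4 of 7 fibroblast markers, led by Col3a1, Postn and Lum (-2.32, -1.66 and -0.81), were lower, where 0.506% of all genes were higher and 3.12% lower. At 12 against 8 weeks 0 genes of these lists were called by limma, with 5 of 6, 3 of 13 and 3 of 7 at an unadjusted p under 0.05, against 18.8% of all genes. Of 6 myoepithelial markers Myh11 was lower (-1.12) and of 8 immune markers Cd3e was higher (0.41) at 8 against 4 weeks, and 0 were called in the other comparisons. Of 6 endothelial, 3 red blood cell, 6 adipocyte and muscle and 3 nerve markers 0 were called, with at most 1 of each list at an unadjusted p under 0.05. The mean over the 7 fibroblast markers ran from 6.32 to 7.15 in mice of 8 weeks and from 7.58 to 8.14 in those of 4 weeks. The mean over the 13 acinar markers ran from 8.75 to 10.7 at 8 weeks and from 9.61 to 11.6 at 4 weeks. Among these markers Amy1, Bpifa2 and Cst10 had within-age standard deviations of 3.06, 2.72 and 2.29. The part of cell makeup in the values of the duct genes was not tested.

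**Figure D5:**
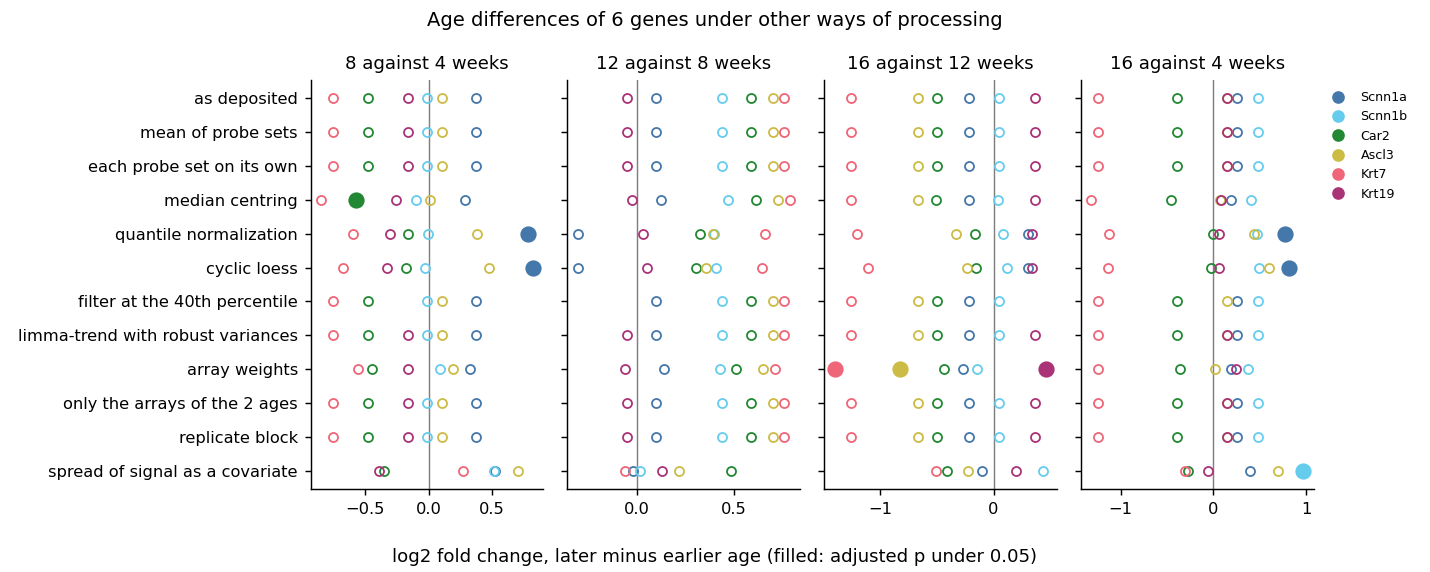
Log2 fold change, later minus earlier age (horizontal axis), of 6 genes in 4 comparisons under the deposited values and 11 other ways of processing (rows), with filled points at an adjusted p under 0.05. Filled points are Car2 with median centring (-0.57), Scnn1a with quantile normalization and cyclic loess (0.78 to 0.82), Scnn1b with the spread covariate (0.97), and Ascl3, Krt7 and Krt19 with array weights.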

How the data were processed

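Labelled RNA of salivary glands from 20 mice was hybridised to 1 array per mouse. The authors deposited log2 values made by RMA (background correction, quantile normalization and summary of probes) in Expression Console 1.1, per the study's methods. Which arrays were normalized together is not given in the sources used here, and the spread of values still differed between arrays, which can move differences of bright genes. Of 45101 probe sets, 34958 had 1 symbol in the platform annotation, 932 had several and 9211 were not listed, and the probe set of highest mean stood for each of 18194 genes. Differences between ages were fitted with limma 3.58.1 in R 4.3.3 over all 20 arrays with age as a factor, and p-values were adjusted by Benjamini-Hochberg over all genes (threshold 0.05). Intervals are 95% confidence intervals from this fit with 20.6 degrees of freedom, and the number of arrays limits their precision. Comparisons of 2 ages were two-sided.

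The 10 genes and all lists were chosen with earlier results of these data known. All 10 were described in every array. Of each other list the counts called, the median and at most the 3 called genes of largest change per comparison were named, and for the 4 genes of lowest F test p-value the 3 genes of most similar pattern. Tfcp2l1, Atp6v0d2, Krt8 and Krt18 were named after their values were seen. Sgk1, named by this rule at 16 against 12 weeks, is given at 16 against 4 weeks too, where it was the fourth called regulator. Alternatives were the mean of probe sets, a filter on genes below the 40th percentile of mean signal, median centring, quantile normalization, cyclic loess, limma-trend with robust variances, array weights, only the arrays of the ages compared, the replicate number as a block, the spread of signal as a covariate, each probe set on its own, and each mouse left out in turn. Mice of different ages are different animals, and same-numbered mice did not deviate together (correlations of deviations from -0.56 to 0.45), so the numbers do not pair the samples. Per the study's methods the mice were kept free of specific pathogens, and glands of both strains were taken in parallel and snap-frozen. RNA of the mice was isolated concurrently. Litters, cages and array batches are not named, so p-values measure the spread between these mice. The SAM analysis that the study describes was not run.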

Additional observations from a re-analysis of the deposited data

Results flagged for a closer look

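In 7 of 40 groups of 5 mice (10 genes at 4 ages) 1 mouse lay far from the other 4, by a gap of more than 0.71 of the whole range. Chance marks about 1 in 20 such groups. In the 16-week mouse replicate 1, Scnn1b had a log2 signal of 7.47, where the other 4 mice had 5.70 to 6.12, Scnn1g had 6.19, where the others had 5.04 to 5.35, and Krt19 had 3.45, where the others had 4.01 to 4.23.

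The other 4 were mice of 12 weeks, a different mouse for each gene. Scnn1g was 5.57 in replicate 4, and 5.21 to 5.30 in the others. Car2 was 7.18 in replicate 1, and 7.69 to 7.87 in the others. Ascl3 was 7.80 in replicate 5, and 8.24 to 8.39 in the others. Krt7 was 6.40 in replicate 2, and 7.04 to 7.19 in the others.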

How the results depend on the processing

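Of 40 log2 fold changes (10 genes, 4 comparisons), recomputed 432 times under other settings, 397 kept their sign and their side of the threshold, 9 were called and 26 took the opposite sign. With each mouse left out in turn, 773 of 800 kept both, 6 were called and 21 took the opposite sign. All values that changed sign were uncalled, and where no value is named the cause was not tested.

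The number of genes called, 1345 at 8 against 4 weeks, was 210 with array weights, 2 with only the arrays of the ages compared, 245 with the replicate block and 16 with the spread of signal as covariate. At 12 against 8 weeks, where 1 was called, it was 0 with the mean of probe sets, 11 with quantile normalization, 4 with cyclic loess, 2 with limma-trend and robust variances, 27 with array weights, 274 with only those arrays and 2 with the spread covariate. At 16 against 12 weeks, where 35 were called, it was 18 with the mean of probe sets, 23 with limma-trend, 1164 with array weights, 111 with only those arrays and 15 with the replicate block. At 16 against 4 weeks, where 660 were called, it was 1389 with array weights, 75 with only those arrays, 262 with the replicate block and 148 with the spread covariate. By the F test, where 473 were called, it was 1486 with array weights, 86 with the replicate block and 122 with the spread covariate. Leaving out a mouse gave 14 to 2694 genes at 8 against 4 weeks, 1 to 225 at 12 against 8 weeks, 9 to 1035 at 16 against 12 weeks, 81 to 3003 at 16 against 4 weeks and 85 to 2611 by the F test.

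Of the 10 genes, 1 was called at 8 against 4 weeks with median centring, quantile normalization or cyclic loess, against 7.22%, 5.82% and 7.07% of all genes. At 16 against 12 weeks 3 were called with array weights, against 6.4% of all genes. At 16 against 4 weeks 1 was called with quantile normalization, cyclic loess or the spread covariate, against 4.01%, 4.33% and 0.813% of all genes. By the F test 1 was called with array weights, where 1486 of all genes were. Leaving out a mouse gave 0 to 1, 0 to 0, 0 to 3 and 0 to 1 in the 4 comparisons and 0 to 3 by the F test. The highest counts at 16 against 12 weeks, 16 against 4 weeks and by the F test came without 16-week replicate 1. In that fit 5.69% and 16.5% of all genes and, by the F test, 2611 genes were called. The replicate block called 0 of the 10 genes. Of the transport and duct epithelial genes named as called, the block lost Prss8, Kcnk1 and Atp6v0d1 at 8 against 4 weeks (adjusted p = 0.0507, 0.0614 and 0.0507), Sgk1 at 16 against 12 and 16 against 4 weeks (0.0826 and 0.0687), and Fxyd3 and Cldn3 at 16 against 4 weeks (0.0667 and 0.0768), all from limma.

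At 8 against 4 weeks the sign turned for Cftr (0.063 with the mean of probe sets, 0.13 with the spread covariate), Foxi1 (-0.0034 with median centring), Scnn1b (0.085 with array weights, 0.52 with the spread covariate) and Krt7 (0.27 with the spread covariate). At 12 against 8 weeks it turned for Cftr (-0.0024 with the mean of probe sets, -0.050 with the spread covariate), Slc4a4 (0.0027 with median centring), Scnn1a (-0.31 with quantile normalization and with cyclic loess, -0.023 with the spread covariate), Krt19 (0.027 with quantile normalization, 0.051 with cyclic loess, 0.13 with the spread covariate), Scnn1g (-0.20) and Krt7 (-0.061), both with the spread covariate. At 16 against 12 weeks it turned for Cftr (-0.015 with the mean of probe sets, -0.031 with array weights), Scnn1a (0.30 with quantile normalization and with cyclic loess), Scnn1b (-0.14) and Scnn1g (-0.039), both with array weights. At 16 against 4 weeks it turned for Cftr (-0.0097 with quantile normalization, -0.020 with cyclic loess) and Krt19 (-0.061 with the spread covariate).

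With each mouse left out in turn, these differences took both signs, given as their lowest and highest values. At 8 against 4 weeks they were Scnn1b (-0.16 to 0.085, turned without 4-week replicate 2 or 4-week replicate 5 or 8-week replicate 3 or 8-week replicate 5) and Ascl3 (-0.10 to 0.29, turned without 4-week replicate 3 or 8-week replicate 1). At 12 against 8 weeks they were Slc4a4 (-0.063 to 0.043, turned without 8-week replicate 3 or 8-week replicate 5 or 12-week replicate 5), Krt19 (-0.11 to 0.0095, turned without 12-week replicate 1), Foxi1 (-0.29 to 0.021, turned without 12-week replicate 3) and Scnn1g (-0.0036 to 0.085, turned without 12-week replicate 4). At 16 against 12 weeks they were Cftr (-0.094 to 0.16, turned without 12-week replicate 2 or 16-week replicate 1 or 16-week replicate 5), Scnn1b (-0.25 to 0.19, turned without 12-week replicate 5 or 16-week replicate 1) and Scnn1g (-0.13 to 0.16, turned without 16-week replicate 1). At 16 against 4 weeks they were Cftr (-0.061 to 0.18, turned without 16-week replicate 1 or 16-week replicate 5) and Ascl3 (-0.19 to 0.29, turned without 16-week replicate 1).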
